A study of Mus musculus with 9 samples.

Results

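The genes described here are the Wnt ligands, their Frizzled and Lrp receptors, the secreted Dkk and Sfrp inhibitors, the Axin scaffolds, beta-catenin (Ctnnb1) and the Tcf factors that read the pathway out on DNA, measured in mouse embryonic stem cells with and without Xpc. They were chosen by name: every non-control probe whose gene name in the array files was a numbered Wnt, Fzd, Dkk or Sfrp, or Lrp5, Lrp6, Axin1, Axin2, Lef1, Tcf7, Tcf7l1, Tcf7l2 or Ctnnb1. This gave 46 genes on 59 probes, out of 34797 gene names on the array. The rule itself uses names only, and it was written with earlier results of these data known.

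The samples were total RNA of embryonic stem cells, 3 arrays a group and 9 in all. Null cells are a subclone of Xpc-null stem cells that lack the gene constitutively. Induced cells come from a stem cell line whose Xpc gene can be deleted with Cre and loxP, and were collected on day 4 after deletion, with +Tx in their titles. Floxed cells are that inducible line without deletion, with -Tx in their titles. Xpc protein senses DNA damage for nucleotide excision repair and has also been described as a coactivator that works with Oct3/4 in stem cells. No group received the induction and kept Xpc, so effects of the induction and of the loss of Xpc cannot be told apart. Null cells differ from floxed cells by subcloning as well as by Xpc, and whether the 3 null arrays stand for more than 1 subclone, or any group for separate cultures, is not stated in the labels. The p-values therefore measure the spread between these arrays, which may be technical.

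In the canonical Wnt pathway a lipid-modified Wnt protein binds a Frizzled receptor together with Lrp5 or Lrp6. This stops a complex built on Axin from marking beta-catenin for destruction, and the beta-catenin that accumulates joins Tcf and Lef proteins at their target genes. Sfrp proteins bind Wnt ligands outside the cell, while Dkk1 and its close relatives block Lrp5 and Lrp6. In mouse embryonic stem cells the pathway favours self-renewal, and Tcf7l1 is known there chiefly as a repressor that beta-catenin relieves.

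Values are the log2 of the background-subtracted signal minus the log2 of the 75th percentile of the same array, so 0 is the level of a probe at that percentile. They are relative to the array and are not compared between probes. The share of spots well above background was 47.4% to 57.87% over the arrays, and 0 spots were saturated. The Xpc probe read -0.85, -1.53 and -1.37 in null, -1.11, -0.68 and -1.05 in induced, and 0.59, 0.55 and 0.16 in floxed arrays 1 to 3. Xpc thus stood at 31.1% of the floxed level in null and at 38.4% in induced cells, a fall past the test in null cells (limma adjusted p = 0.00583) but not in induced cells (limma adjusted p = 0.224), although induced and floxed arrays did not overlap. Whether its probe lies in the deleted stretch is not known. All 10 embryonic stem cell markers examined were detected, and their summed linear level, in multiples of the 75th percentile, lay between 380 and 417 in null, 433 and 479 in induced and 343 and 492 in floxed arrays.

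A single floxed array stood apart from its group. Array 3 of the floxed cells was hybridised on slide 2, together with null array 3, while floxed arrays 1 and 2 were on slide 1 and the remaining 5 arrays (null 1 and 2 and all induced) were on slide 3. Over all genes its difference from the mean of floxed 1 and 2 had an SD of 0.492, against 0.284 for floxed 1 minus floxed 2. Among the 31 Wnt pathway genes that could be tested, 14 (45.2%) lay more than 0.5 from that mean on floxed array 3, against 22.4% of all genes. Between floxed arrays 1 and 2 the same distance was passed by 3 of the 31 (9.68%) and by 6.38% of all genes. Results that rest on floxed array 3 are given below with it and without it. Without it, the floxed arrays left are the only arrays on slide 1. Differences from floxed cells then cannot be told apart from differences between slides.

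Detection was read for each gene at its probe above background on the most arrays. Of the 46 genes, 26 were well above background on all 9 arrays. Among these 26, Wnt1, Fzd2 and Tcf7l2 each had another probe above background on no array, and Tcf7 had another above background on 4 arrays. A further 5 were above background on no array, namely the ligands Wnt2, Wnt2b, Wnt3a and Wnt10b and the inhibitor Dkk2. Of the 19 ligands 5 were above background on all arrays, and of the 10 Frizzled receptors 8. Both Lrp co-receptors, Axin1, beta-catenin and all 4 Tcf factors were above background on all 9 arrays, as were Dkk3, Sfrp1, Sfrp2, Sfrp4 and Sfrp5. A gene was tested where 1 or more groups had a probe above background on every array, which held for 37 of the 59 probes, and its brightest such probe stood for it. The 31 genes tested were 9 ligands (Wnt1, Wnt3, Wnt4, Wnt5a, Wnt5b, Wnt6, Wnt7b, Wnt9a and Wnt11), 9 Frizzled receptors, 2 co-receptors, 5 inhibitors, Axin1, beta-catenin and the 4 Tcf factors. Some arrays, but not enough for the test, detected 10 more: Wnt7a, Wnt8a, Wnt8b, Wnt9b, Wnt10a, Wnt16, Fzd6, Dkk1, Dkk4 and Axin2.

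**Figure D1:**
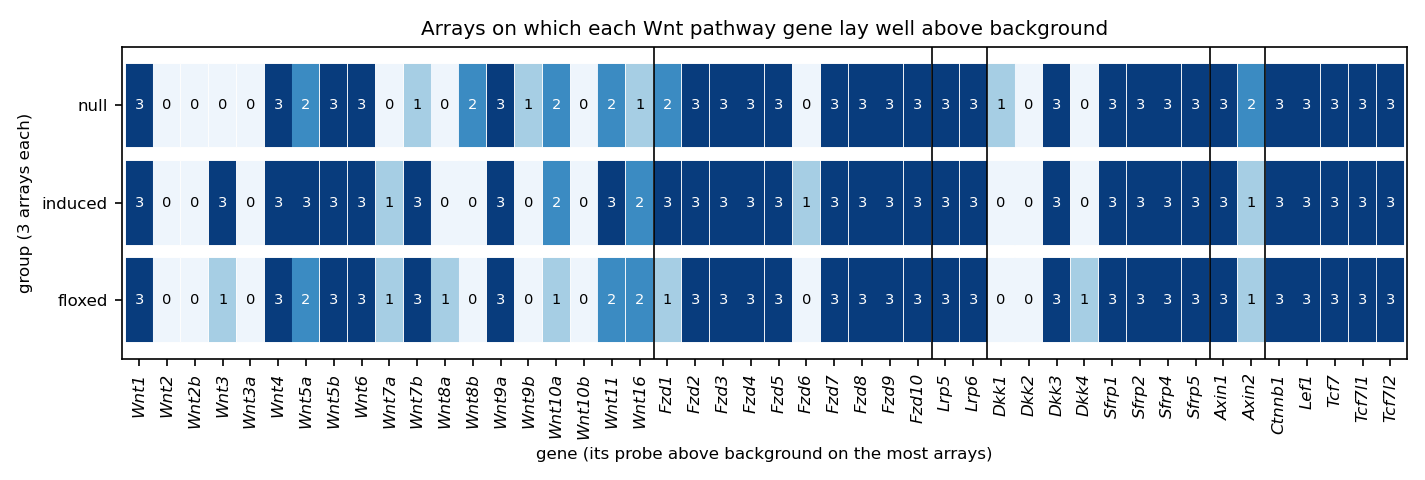
Number of arrays, out of 3 in each group, on which each of the 46 genes lay well above background, read at its probe detected on the most arrays. Rows are null, induced and floxed cells from top to bottom as labelled, and lines divide ligands, Frizzled receptors, Lrp co-receptors, secreted inhibitors, Axin scaffolds and the Tcf factors with beta-catenin. The 5 genes at 0 in all 3 rows are Wnt2, Wnt2b, Wnt3a, Wnt10b and Dkk2.

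Between induced and floxed cells, which asks what differed on day 4 after deletion, 0 of the 31 genes passed the test (limma, adjusted over 19909 genes, threshold 0.05). Over all genes 1 passed, which is 0.00502%. At an unadjusted limma p under 0.05 there were 2 of the 31, Wnt7b and Wnt9a, where the share of all genes was 5.91%. The 2 groups did not overlap at 4 of the 31 genes, against 12.9% of all genes. The median difference of the 31 was -0.10, that of all genes -0.000691.

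Between null and floxed cells, which asks what differed with lasting loss of Xpc, 2 of the 31 genes passed, and both fell. They were the ligands Wnt4 and Wnt7b, and make up 6.45% of the 31 where 1.84% of all genes passed (147 rose and 220, or 1.11%, fell). The groups did not overlap at 8 of the 31 genes (23.4% of all genes), and 10 had an unadjusted limma p under 0.05 (22.8% of all genes). The median difference of the 31 genes was 0.0011, that of all genes 0.0117. Null and induced cells differed past the test at 1 of the 31 genes, Wnt4, which fell in null cells, or 3.23% where 2.2% of all genes passed and 1.54% fell. There the groups did not overlap at 13 of the 31 genes (37.2% of all genes), and 23.9% of all genes had an unadjusted p under 0.05. The comparisons of null and of induced cells with floxed cells share the same 3 floxed arrays, so they are given side by side and not set against each other.

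**Figure D2:**
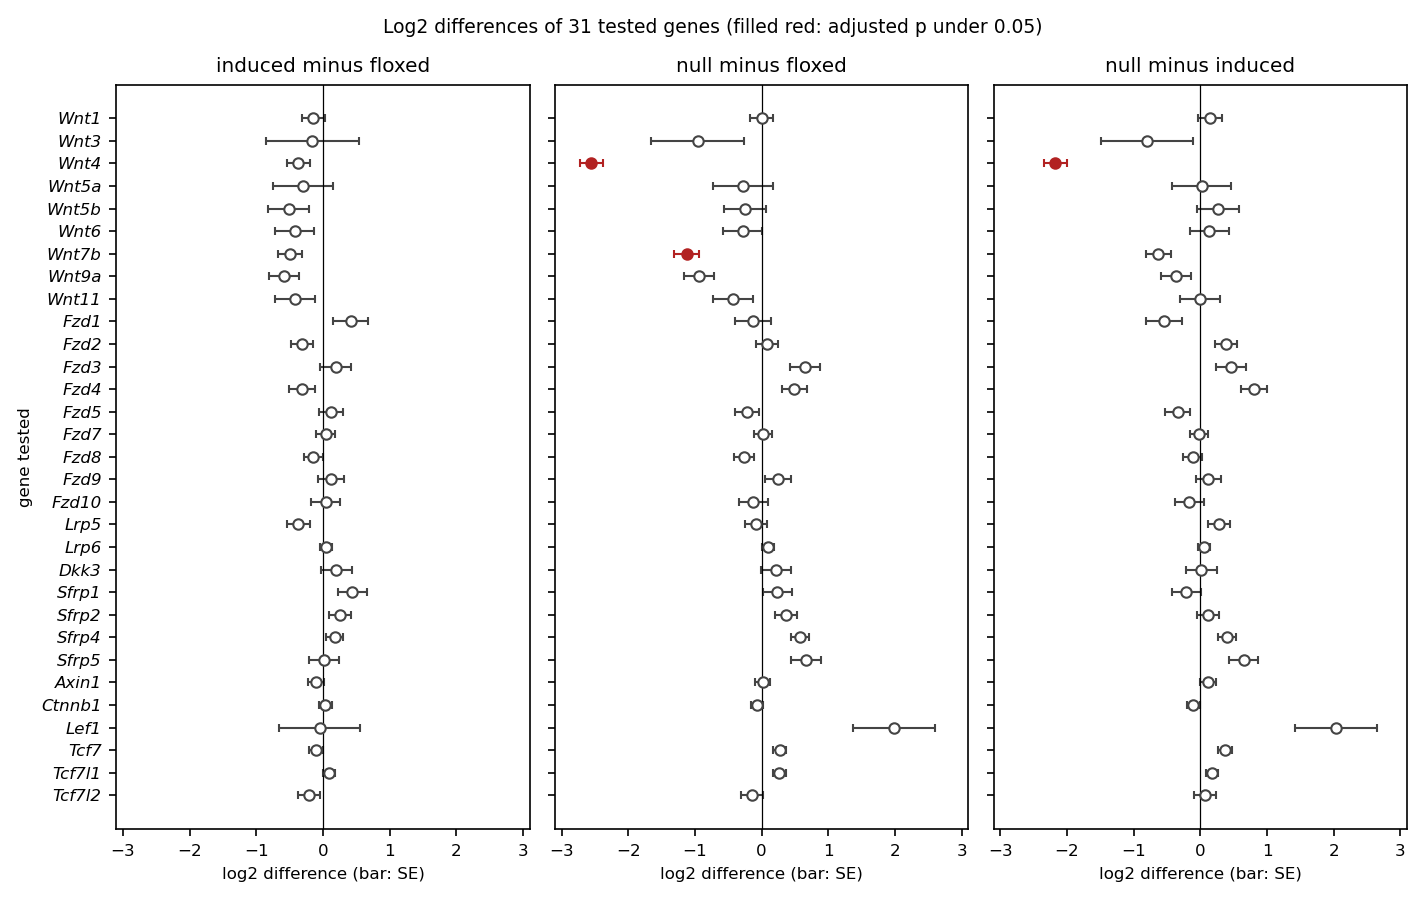
Log2 differences of the 31 genes tested, with bars of 1 standard error from the limma fit of 9 arrays, in the 3 comparisons named above the panels. Filled red points passed the adjusted threshold: Wnt4 (-2.55) and Wnt7b (-1.13) in null minus floxed, Wnt4 (-2.18) in null minus induced, and none in induced minus floxed. Lef1 lies farthest to the right in both comparisons of null cells, with a wide error.

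Wnt4, a ligand known from the development of the kidney and of the female gonad, showed the largest fall of the 31 genes in null cells. The tested probe read -2.65, -2.29 and -2.37 in null, 0.00, -0.41 and -0.36 in induced, and 0.09, 0.40 and -0.14 in floxed arrays 1 to 3. All 3 null arrays were far below the other 6, while induced and floxed arrays overlapped. The means were -2.44 ± 0.19 in null, -0.26 ± 0.22 in induced and 0.12 ± 0.27 in floxed cells (SD, n = 3 each). Null cells held 17.0% of the floxed level (log2 difference -2.55, SE 0.17, limma adjusted p = 0.00063) and 22.1% of the induced level (-2.18, SE 0.17, limma adjusted p = 0.00185). The difference between induced and floxed cells was -0.37 and did not pass (limma adjusted p = 0.864). The fall in null cells passed in all 18 alternative analyses against floxed cells (-2.68 to -1.65) and in all 18 against induced cells (-2.26 to -1.32). Within slide 2, null array 3 differed from floxed array 3 by -2.23, and within slide 3 the mean of null arrays 1 and 2 differed from that of the induced arrays by -2.21.

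The array holds another, dimmer Wnt4 probe at another place in the transcript, and it read -3.02, -2.92 and -2.33 in null, -1.41, -1.62 and -1.58 in induced, and -1.07, -1.03 and -1.10 in floxed arrays 1 to 3. Here the 3 groups were fully apart, with null lowest and floxed highest. Tested over all 27529 probes, where 1.44% passed, the null difference from floxed cells was -1.69 (limma adjusted p = 0.00258). Against induced cells it was -1.22 (limma adjusted p = 0.0152, with 1.33% of probes passing). Induced and floxed cells differed by -0.47, which was not past the threshold (limma adjusted p = 0.754). Both probes thus placed null cells lowest, with a larger difference at the brighter probe. The array files place probes on mm9, and no exon annotation of that build was used. The sequence of the dimmer probe is shown whole because its 60 bases are spread over 569 bases of the genome (chr4:136851690-136852258, plus strand), so it reads spliced Wnt4 transcripts. Of the tested probe (chr4:136855342-136855401, plus strand) the first 30 of 60 bases are shown.
Wnt4 dimmer probe: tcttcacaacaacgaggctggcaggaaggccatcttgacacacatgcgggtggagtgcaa
Wnt4 tested probe, first 30 bases: tatgaggctccttggcattgtgacatcccc

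**Figure D3:**
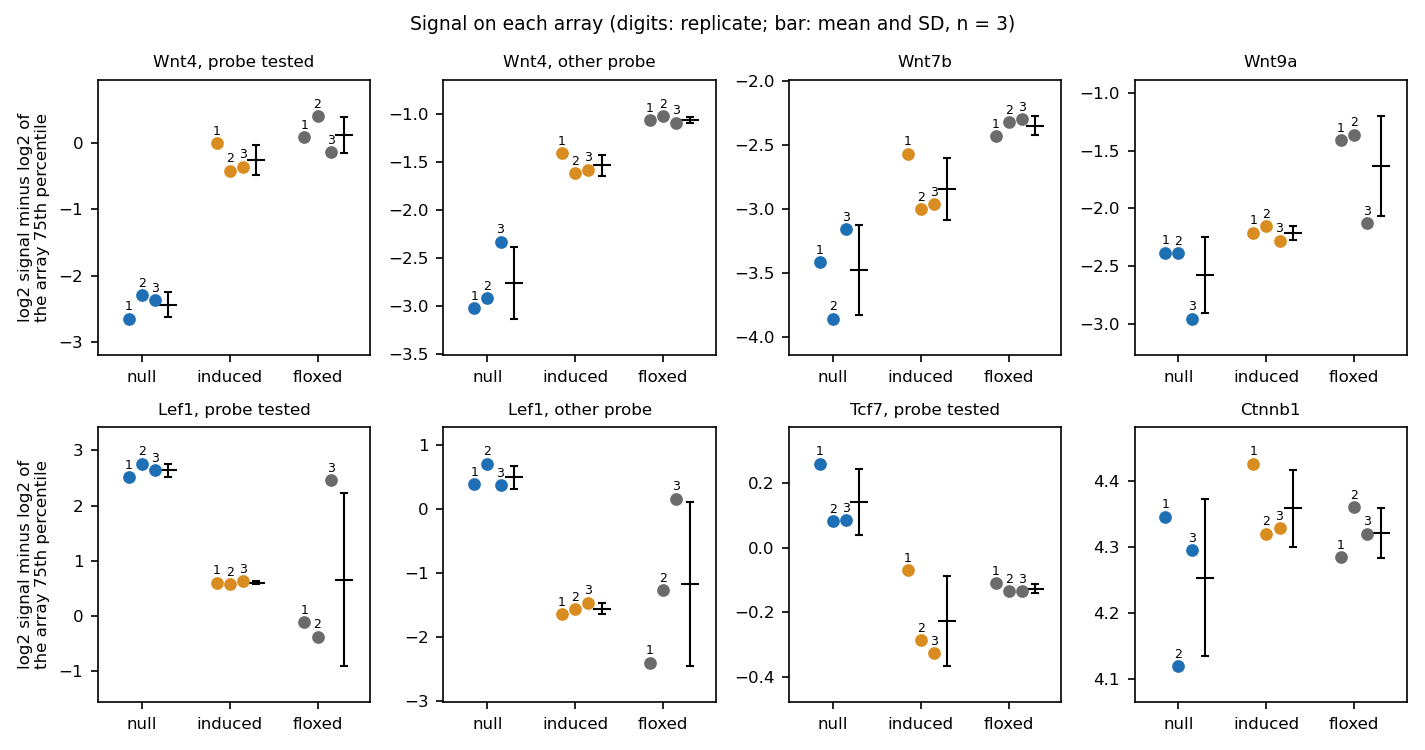
Signal of each array, in log2 units above the array's 75th percentile, at 8 probes of Wnt4, Wnt7b, Wnt9a, Lef1, Tcf7 and Ctnnb1. Points are arrays with their replicate number, in the order null, induced and floxed, and bars are the mean and SD of 3 arrays. Wnt4 was lowest on the 3 null arrays at both probes, and floxed array 3 lay near the null arrays at both Lef1 probes (2.46 and 0.16).

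Wnt7b, a ligand known from lung and placenta development, fell in null cells relative to floxed cells. It read -3.41, -3.85 and -3.16 in null, -2.57, -3.0 and -2.96 in induced, and -2.43, -2.32 and -2.29 in floxed arrays 1 to 3. The 3 groups did not overlap, with floxed cells highest and null cells lowest. The null difference from floxed cells was -1.13 (SE 0.18, limma adjusted p = 0.0245), which leaves 45.8% of the floxed level. The probe was dim, and in null cells it was well above background on 1 of 3 arrays. Differences of -0.63 between null and induced cells (limma adjusted p = 0.102) and -0.49 between induced and floxed cells (limma adjusted p = 0.731) did not pass. The call was not stable: it was kept in 6 of 17 alternative analyses, with adjusted p up to 0.355, and leaving out a single array ended it for each of floxed arrays 1 and 2, induced arrays 2 and 3 and null arrays 1 and 2. Over the 17 alternatives the difference lay between -1.29 and -0.35, and it was smallest with normexp background (-0.35) and in the series matrix (-0.39). The array holds 1 Wnt7b probe (chr15:85366896-85366955, minus strand), of which the first 30 bases are shown.
Wnt7b probe, first 30 bases: tctgaagatttactggagaccccacggctc

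Wnt9a, a ligand known from joint formation and singled out here after its values were seen, read -2.38, -2.39 and -2.95 in null, -2.21, -2.15 and -2.28 in induced, and -1.41, -1.36 and -2.13 in floxed arrays 1 to 3. Null arrays were below all others, and floxed array 3 lay close to the induced arrays. The null difference from floxed cells was -0.94 (limma adjusted p = 0.074) and the induced difference -0.58 (limma adjusted p = 0.752). Neither passed. Without floxed array 3 the null difference was -1.19 and passed (limma adjusted p = 0.00259), in a fit where 24.9% of all genes passed.

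The other ligands named by rule were Wnt1, known from the midbrain, and Wnt6. The other Wnt1 probe was above background on no array. At its tested probe Wnt1 read 0.42, 0.53 and 1.07 in null, 0.62, 0.54 and 0.43 in induced, and 0.57, 0.56 and 0.88 in floxed arrays 1 to 3, with all groups overlapping. Its differences were 0.0011 for null and -0.14 for induced cells against floxed cells, neither past the test. Wnt6 read -1.67, -1.55 and -1.48 in null, -1.63, -1.57 and -1.92 in induced, and -1.70, -1.68 and -0.47 in floxed arrays 1 to 3. Floxed array 3 alone stood high, and the differences from floxed cells, -0.29 for null and -0.42 for induced cells, did not pass. Wnt5b, a relative of Wnt5a in signalling without beta-catenin, had the same shape, with -0.38 on floxed array 3 and values between -1.83 and -1.46 on the other 8 arrays. The 3 remaining ligands tested were Wnt3, which mouse embryos need to form the primitive streak, Wnt5a and Wnt11, and their null differences from floxed cells ran from -0.96 to -0.28 without passing. Wnt3, at -0.96, was above background on no null array, so its null level is known only as a bound.

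Seen as a family, all 9 ligands tested were lower in induced than in floxed cells, with a median of -0.42, and 8 of 9 were lower in null than in floxed cells, with a median of -0.43. None of the 9 passed in induced cells. Only 5 of the 9 ligands were above background on all 9 arrays. Over these 5 the induced median was -0.42 with 5 lower, and the null median -0.29 with 4 lower. With normexp background the medians of the 9 were -0.25 in induced and -0.26 in null cells. Without floxed array 3 the induced median was -0.07 with 7 of 9 lower, and the null median -0.08 with 5 of 9 lower and 3 past the test (Wnt4, Wnt7b and Wnt9a), where 24.9% of all genes passed. With slide as a fixed block, which leaves floxed array 3 as the only floxed array that counts, the induced median was -0.66 and the null median -1.01.

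At the receptors no Frizzled gene passed in any of the 3 comparisons. Fzd7, a main Frizzled receptor of stem cells, read 1.12, 0.61 and 0.70 in null, 0.89, 0.82 and 0.77 in induced, and 0.79, 0.91 and 0.67 in floxed arrays 1 to 3. All groups overlapped at this probe, and the differences from floxed cells were 0.02 for null and 0.04 for induced cells. At a dimmer Fzd7 probe null arrays lay above induced arrays without overlap, by 0.35. Tested over all probes, this did not pass (limma adjusted p = 0.266). Fzd2 read 1.73, 1.66 and 1.58 in null, 1.33, 1.17 and 1.29 in induced, and 1.34, 1.41 and 1.99 in floxed arrays 1 to 3. Its induced arrays were lowest without overlap, yet neither the difference of -0.31 from floxed cells (limma adjusted p = 0.911) nor the null difference of 0.39 from induced cells (limma adjusted p = 0.192) passed. Fzd10 read 0.53, 0.70 and 0.79 in null, 0.74, 0.97 and 0.81 in induced, and 0.57, 0.46 and 1.36 in floxed arrays 1 to 3, so that floxed array 3 alone was high.

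Across the 9 Frizzled receptors tested the differences ran from -0.31 to 0.42 for induced and from -0.26 to 0.65 for null cells against floxed cells, with medians of 0.04 and 0.02. Fzd4, the receptor of Norrin as well as of Wnts and singled out after its values were seen, had the largest difference between null and induced cells. It read -1.27, -1.32 and -1.02 in null, -1.76, -2.28 and -1.98 in induced, and -2.05, -1.62 and -1.41 in floxed arrays 1 to 3. Null arrays were highest without overlap, and the differences of 0.80 from induced cells (limma adjusted p = 0.0677) and 0.49 from floxed cells (limma adjusted p = 0.177) did not pass. It passed against induced cells with slide as a fixed block (0.71, limma adjusted p = 0.0422, with 16.3% of all genes passing). It also passed without floxed array 3 (0.80, limma adjusted p = 0.0168, with 18.1% of all genes passing).

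The co-receptors Lrp5 and Lrp6, which bind Wnt together with a Frizzled receptor, did not pass either. Lrp6 read 2.68, 2.61 and 2.80 in null, 2.59, 2.70 and 2.61 in induced, and 2.59, 2.62 and 2.56 in floxed arrays 1 to 3. Its groups overlapped at this probe, and the differences were 0.10 for null and 0.04 for induced cells against floxed cells (SE 0.09 each). At a dimmer Lrp6 probe null arrays lay above floxed arrays without overlap, by 0.25. Tested over all probes, this did not pass (limma adjusted p = 0.251). Lrp5 read 1.97, 2.01 and 2.52 in null, 1.99, 1.81 and 1.87 in induced, and 2.09, 2.18 and 2.50 in floxed arrays 1 to 3. Induced arrays lay below floxed arrays without overlap, by -0.37 (limma adjusted p = 0.857).

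The secreted inhibitors that could be tested were Dkk3, a divergent Dkk, and 4 Sfrp genes. Each of the 5 was higher in null and in induced than in floxed cells, with medians of 0.37 and 0.20, and none passed. Sfrp2 read 1.36, 1.10 and 1.01 in null, 1.15, 0.96 and 1.02 in induced, and 0.61, 0.59 and 1.17 in floxed arrays 1 to 3. Floxed arrays 1 and 2 were low and floxed array 3 lay among the null and induced arrays, with differences from floxed cells of 0.37 for null (limma adjusted p = 0.233) and 0.25 for induced cells (limma adjusted p = 0.954). Sfrp1 had the same shape, at -1.32, -1.52 and -1.61 in null, -1.30, -1.38 and -1.15 in induced, and -2.07, -1.91 and -1.17 in floxed arrays 1 to 3.

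Sfrp4 read 0.41, 0.06 and 0.12 in null, -0.12, -0.23 and -0.24 in induced, and -0.24, -0.30 and -0.59 in floxed arrays 1 to 3. Null arrays were above all others, by 0.57 over floxed cells (limma adjusted p = 0.0682) and 0.40 over induced cells (limma adjusted p = 0.126), short of the threshold. Dkk3 read -1.97, -0.94 and -1.65 in null, -1.54, -1.46 and -1.62 in induced, and -1.86, -1.81 and -1.55 in floxed arrays 1 to 3, and the groups overlapped. The direction of the 5 inhibitors also rested on floxed arrays 1 and 2: with slide as a fixed block 4 of the 5 were lower in null than in floxed cells (median -0.11) and 4 of 5 lower in induced cells (median -0.30). Without floxed array 3 all 5 were higher in null cells, with a median of 0.51, and 4 passed (Sfrp1, Sfrp2, Sfrp4 and Sfrp5), in a fit where 24.9% of all genes passed.

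Inside the cell, Axin1, the scaffold of the complex that marks beta-catenin, read 1.77, 1.46 and 1.44 in null, 1.52, 1.32 and 1.48 in induced, and 1.49, 1.56 and 1.58 in floxed arrays 1 to 3. Its groups overlapped, and the differences from floxed cells were 0.01 for null and -0.10 for induced cells. Axin2, a feedback inhibitor that is itself a target of the pathway, was dim at both of its probes and was not tested. Its probe above background on the most arrays did so on 2 of 3 null, 1 of 3 induced and 1 of 3 floxed arrays, at -3.25, -4.30 and -2.62 in null, -3.93, -3.33 and -4.88 in induced, and -3.24, -3.41 and -2.98 in floxed arrays 1 to 3. At this probe all groups overlapped. The other probe was above background on 1 null and 1 floxed array only. It read -3.54, -3.64 and -4.16 in null, -4.63, -4.17 and -4.95 in induced, and -5.46, -5.29 and -3.28 in floxed arrays 1 to 3. There null arrays lay above the induced arrays, by little at the closest, and floxed array 3 was highest, mostly at signals below detection.

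Beta-catenin transcripts (Ctnnb1) read 4.35, 4.12 and 4.29 in null, 4.43, 4.32 and 4.33 in induced, and 4.28, 4.36 and 4.32 in floxed arrays 1 to 3. The groups overlapped, with differences from floxed cells of -0.07 for null and 0.04 for induced cells (SE 0.09 each). The pathway acts on the stability of the protein, which arrays do not measure. Tcf7l1 read 1.93, 2.11 and 1.94 in null, 1.89, 1.79 and 1.77 in induced, and 1.68, 1.71 and 1.78 in floxed arrays 1 to 3. Null arrays were highest, by 0.27 over floxed cells (SE 0.09, limma adjusted p = 0.142), and the induced difference from floxed cells was 0.09.

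Tcf7, an activating Tcf factor, read 0.26, 0.08 and 0.09 in null, -0.07, -0.29 and -0.33 in induced, and -0.11, -0.13 and -0.13 in floxed arrays 1 to 3. Null arrays were again above all others, by 0.27 over floxed cells (limma adjusted p = 0.169) and 0.37 over induced cells (limma adjusted p = 0.0919), without passing. Tcf7l2 read -0.35, -0.17 and 0.20 in null, -0.27, -0.25 and -0.00 in induced, and -0.10, -0.04 and 0.25 in floxed arrays 1 to 3, all overlapping. Its other probe above background, for which the differences from floxed cells were 0.27 in null and 0.32 in induced cells, turned the sign of the tested probe's -0.14 and -0.21, and none of the 4 passed.

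Lef1, the Tcf family member that is most often itself induced by the pathway, was higher on all 3 null arrays than on any other array, with floxed array 3 just below them. The tested probe read 2.52, 2.76 and 2.64 in null, 0.61, 0.58 and 0.64 in induced, and -0.11, -0.37 and 2.46 in floxed arrays 1 to 3. Null and induced arrays were each tight, while floxed array 3 lay with the null arrays and the other floxed arrays below the induced ones. The means were 2.64 ± 0.12 in null, 0.61 ± 0.03 in induced and 0.66 ± 1.56 in floxed cells (SD, n = 3 each). With all 9 arrays the null differences of 1.98 from floxed cells (SE 0.61, limma adjusted p = 0.117) and 2.03 from induced cells (SE 0.61, limma adjusted p = 0.107) did not pass. The fit uses 1 estimate of the spread for all groups, and the floxed SD of 1.56 enters it.

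Without floxed array 3, Lef1 rose in null cells by 2.88 relative to floxed cells (limma adjusted p = 3.07e-05) and by 2.03 relative to induced cells (limma adjusted p = 0.00013), and rose in induced cells by 0.85 relative to floxed cells (limma adjusted p = 0.0313). Of all genes, 24.9%, 18.1% and 0.787% passed in these 3 comparisons without that array. Within slide 3 the mean of null arrays 1 and 2 was 2.03 above the induced arrays, and within slide 2 null array 3 was 0.19 above floxed array 3. With slide as a fixed block the null difference from floxed cells was therefore 0.19, and the induced difference was -1.84 and passed (limma adjusted p = 0.0297), opposite in sign to the value without floxed array 3. In that fit 0.874% of all genes passed between induced and floxed cells. The dimmer Lef1 probe read 0.40, 0.71 and 0.38 in null, -1.64, -1.57 and -1.46 in induced, and -2.40, -1.26 and 0.16 in floxed arrays 1 to 3. Floxed array 3 was again nearest the null arrays, while floxed array 2 here lay just above the induced arrays. The first 30 bases of both probes are shown: the tested probe lies at chr3:130926200-130926259 and the dimmer at chr3:130907851-130926012, both on the plus strand of mm9, and the dimmer spreads over 18162 bases of the genome.
Lef1 tested probe, first 30 bases: actgcaagcgccgacttccaaaaagaaagc
Lef1 dimmer probe, first 30 bases: gtacaggtcccagaatgacagctgcctaca

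Floxed array 3 differed from floxed arrays 1 and 2 at several of these genes at once. It was higher by 2.70 at Lef1, 1.33 at Wnt5b and 1.22 at Wnt6. Wnt3 and Wnt5a were higher there too, but only 1 of 3 floxed arrays detected Wnt3 and 2 of 3 detected Wnt5a, so no size is given. Receptors and inhibitors were also among the genes that stood high, such as Fzd3 (0.95), Fzd10 (0.85) and Sfrp1 (0.83), while the ligands Wnt4 (-0.39) and Wnt11 (-0.24) were lower. In all 12 of the 31 genes (38.7%) were more than 0.5 higher there, against 12.3% of all genes, and 2 were more than 0.5 lower, Fzd5 (-0.69) and Wnt9a (-0.74). Wnt8a, which was not tested, read -2.05 and was above background on floxed array 3, against -5.57 and -5.40 on floxed arrays 1 and 2. Most marker lists also stood apart on floxed array 3. Primitive streak and mesoderm markers had a summed level of 37.9 there, against 21.3 and 23 on floxed arrays 1 and 2. Lower sums were found for embryonic stem cell markers (343, against 467 and 492), fibroblast markers (95.6, against 154 and 160), trophectoderm markers (79.8, against 115 and 118) and primitive endoderm markers (8.31, against 12.6 and 13.6). Of the 12 primitive streak and mesoderm markers Mixl1 and Foxf1 were above background on no array. On null array 3, which shared its slide, their sum was 36.1, against 19.3 and 20 on null arrays 1 and 2, while Wnt5b and Wnt6 read -1.46 and -1.48 there. The part of these markers or of the slide in the difference was not tested.

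Without floxed array 3 the counts changed in all comparisons. In this fit floxed cells were the only group on slide 1, so rises and falls against them cannot be told apart from slide. In null against floxed cells 12 of 31 genes passed, 8 rising and 4 falling, where 24.9% of all genes did. Those that rose were Lef1 (2.88), Fzd3 (0.97), Sfrp5 (0.93), Fzd4 (0.63), Sfrp2 (0.56), Sfrp1 (0.51), Fzd9 (0.49) and Sfrp4 (0.46), and those that fell were Wnt4 (-2.68), Wnt9a (-1.19), Wnt7b (-1.10) and Fzd5 (-0.45). Lef1 and Sfrp1 (0.72) rose in induced against floxed cells, 2 of 31 where 0.787% of all genes passed. Fzd3, a receptor known from axon guidance and past the test in null against floxed cells only in this fit, read -1.07, -0.89 and -1.06 in null, -1.41, -1.52 and -1.47 in induced, and -1.93, -2.02 and -1.03 in floxed arrays 1 to 3. Sfrp5 likewise read -1.38, -1.06 and -1.59 in null, -1.93, -1.93 and -2.11 in induced, and -2.26, -2.29 and -1.48 in floxed arrays 1 to 3, so at both genes floxed array 3 alone lay with the null arrays. In null against induced cells 8 of 31 passed, 7 rising and Wnt4 falling, where 18.1% of all genes passed. With slide as a random block, 1 of the 31 (Wnt4) passed between null and floxed cells, where 0.517% of all genes did, and 6 of 31 between null and induced cells, where 9.1% did. At the 2 floxed arrays left without array 3, the floxed spread is estimated together with that of the other groups.

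**Figure D4:**
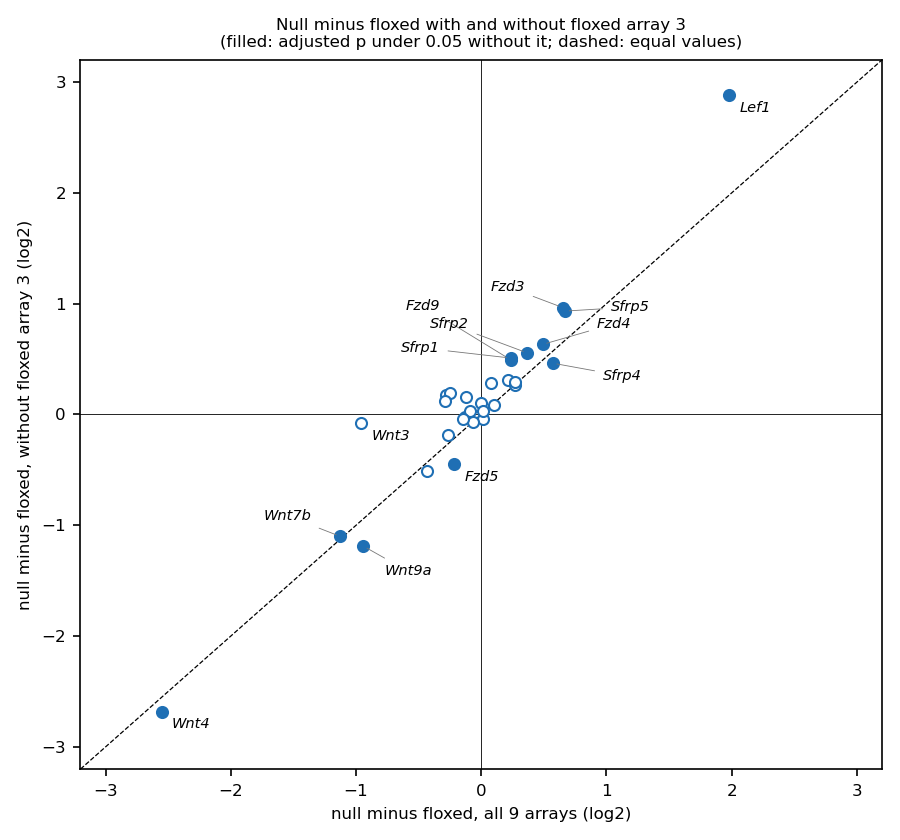
Null minus floxed log2 difference of each of the 31 genes with all 9 arrays (x axis) and without floxed array 3 (y axis). Filled points passed the adjusted threshold without that array, 12 of 31 genes, where 24.9% of all genes passed. Points above the dashed line had a higher difference without it. Wnt4 lies low on both axes (-2.55 and -2.68), Lef1 lies higher without that array (1.98 and 2.88) and Wnt3 lies at -0.96 with all arrays and -0.08 without floxed array 3.

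Other genes of the pathway were examined in 6 lists of 91 genes, of which 69 were tested. Between induced and floxed cells 0 of the 69 passed, with 6 at an unadjusted limma p under 0.05, where the share of all genes was 5.91%. Between null and floxed cells 1 rose and 3 fell (5.8% of the 69), and between null and induced cells 2 rose and 4 fell (8.7%), where 1.84% and 2.2% of all genes passed. The falls in each comparison include Ccn4 and Cdx2, which were below detection in null cells. Of the 12 genes for Wnt secretion and the R-spondin system 6 were tested. None of the 21 cytoplasmic transduction genes, such as the Dvl and Gsk3 genes, passed in any comparison, nor any of the 13 nuclear cofactors tested (14 listed) or of the 4 other secreted inhibitors and co-receptors tested (11 listed).

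Wls, the membrane protein that carries Wnt proteins to the cell surface, fell in null cells. It read -1.72, -2.03 and -2.19 in null, -0.30, -0.43 and -0.61 in induced, and -0.36, -0.29 and -0.51 in floxed arrays 1 to 3. All null arrays were below all others, by -1.59 from floxed cells (SE 0.14, limma adjusted p = 0.0013) and -1.54 from induced cells (SE 0.14, limma adjusted p = 0.00296). Both falls passed in all 18 alternative analyses. Porcn, the enzyme that attaches the lipid to Wnt proteins, read 0.83, 1.22 and 1.06 in null, 1.67, 1.59 and 1.63 in induced, and 1.57, 1.57 and 1.39 in floxed arrays 1 to 3. Null arrays were lowest, and the difference of -0.59 from induced cells passed (limma adjusted p = 0.0436), although in 7 of 18 alternatives only. From floxed cells Porcn differed by -0.47, short of the threshold (limma adjusted p = 0.0785).

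Among 23 known targets of beta-catenin and Tcf, 17 were tested, and in null cells 1 rose and 2 fell against each of the other groups. This was 17.6% of the 17 each time, where 1.84% of all genes passed against floxed and 2.2% against induced cells. Both falls, at Ccn4 and Cdx2, entered the test only through groups in which these genes were detected. With probes above background on all 9 arrays, 14 targets were tested. Of these, 2 rose and 1 fell against floxed cells (2.43% of all genes passed), and 1 rose and 0 fell against induced cells (2.51% of all genes). Ccn4, also called Wisp1 and a secreted matrix-associated target of Wnt1 signals, was above background on no null array and was at least 5.0-fold lower than in floxed cells (limma adjusted p = 0.000762) and at least 5.22-fold lower than in induced cells (limma adjusted p = 0.00185). Cdx2, a trophectoderm and posterior body factor, was at least 3.0-fold lower than in floxed cells (limma adjusted p = 0.00451) and at least 2.13-fold lower than in induced cells (limma adjusted p = 0.0115, kept in 11 of 17 alternatives, with adjusted p up to 0.0924). These folds are bounds, with each null array set to the lowest signal that its detected probes reached, or to its own value if higher. The adjusted p-values came from the fit of the values as read, which were below detection in null cells, and do not test these folds. Ccnd1, a cyclin of the G1 phase, went the other way: it read 2.99, 3.06 and 2.78 in null, 2.02, 1.93 and 2.12 in induced, and 1.80, 1.75 and 2.45 in floxed arrays 1 to 3.

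Ccnd1 was higher on all null arrays than on any other, by 0.94 over floxed cells (limma adjusted p = 0.0412) and 0.92 over induced cells (limma adjusted p = 0.0438). These calls held in 6 of 18 and 7 of 18 alternatives. Prickle1, a planar cell polarity protein, was the remaining gene past the test, at 1.57, 1.69 and 1.70 in null, 1.12, 0.88 and 0.92 in induced, and 1.31, 1.25 and 1.66 in floxed arrays 1 to 3. It rose by 0.68 over induced cells (limma adjusted p = 0.0377, kept in 9 of 18 alternatives) and was the only one of 11 tested genes of its list to pass. Sp5, often used as a readout of the pathway, read -2.39, -2.09 and -2.27 in null, -2.27, -2.50 and -2.62 in induced, and -1.68, -2.11 and 0.45 in floxed arrays 1 to 3, so that it shared the high value of Lef1 on floxed array 3 but not its high null values. Sp5 and Myc were named after their values were seen. Myc read 1.62, 1.26 and 1.04 in null, 0.16, 0.31 and 0.34 in induced, and -0.18, -0.19 and 0.78 in floxed arrays 1 to 3, and its null difference of 1.17 from floxed cells did not pass (limma adjusted p = 0.0623).

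**Figure D5:**
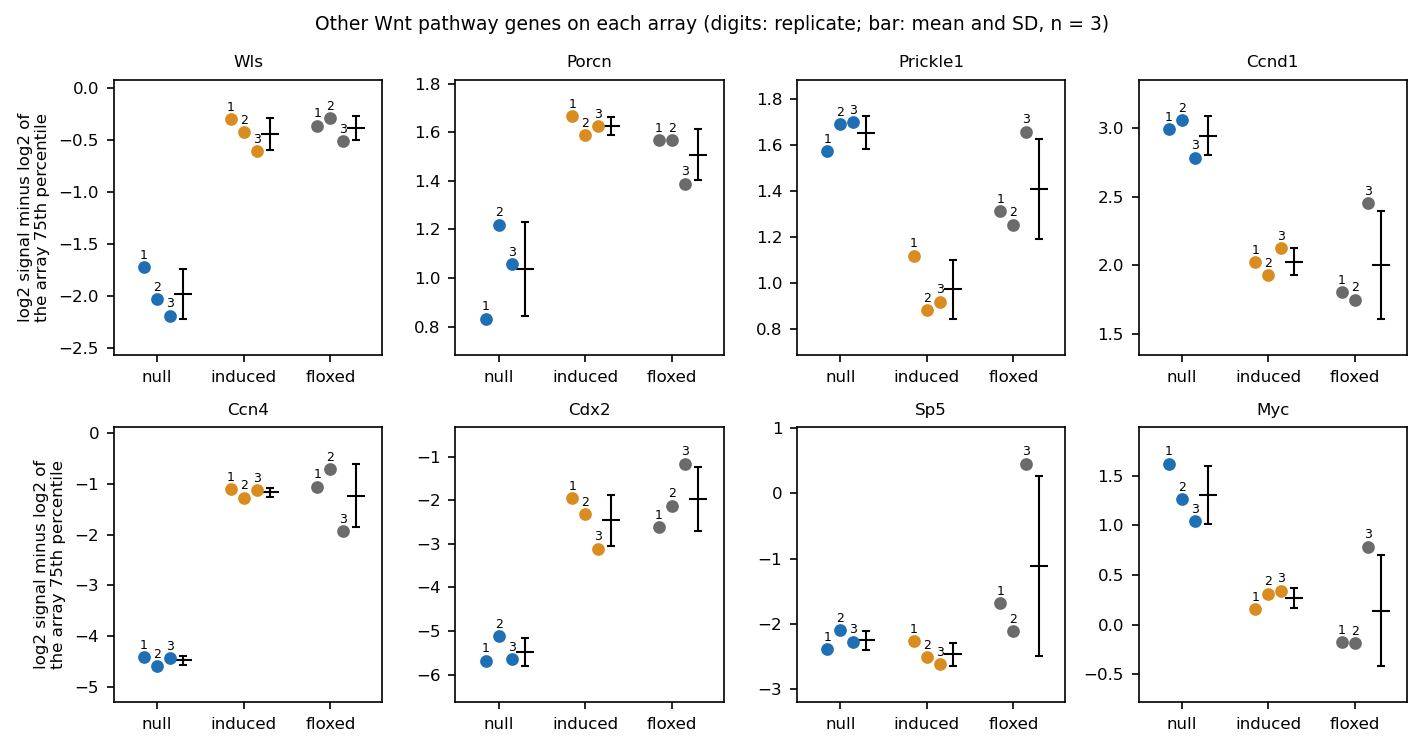
Signal of each array, in log2 units above the array's 75th percentile, for 8 other genes of the pathway. Points are arrays with their replicate number, in the order null, induced and floxed, and bars are the mean and SD of 3 arrays. Wls, Ccn4 and Cdx2 were lowest on the 3 null arrays and Ccnd1 was highest there, while Sp5 was highest on floxed array 3 (0.45).

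Marker lists of other cell types differed in direction on the null arrays. The 13 fibroblast markers summed to between 91.9 and 98 times the 75th percentile in null arrays, 127 and 132 in induced and 95.6 and 160 in floxed arrays, the low floxed value being array 3, which lay within the null range. Of these 13, Col6a3, Pdgfrb, Postn and Lum were above background on no array, and 6 of the 8 tested fell in null cells against each other group. Over all genes 1.11% fell against floxed and 1.54% against induced cells. In each comparison 1 of the 8 was higher in null cells, by 1.365 over floxed and 1.34 over induced cells. The 12 trophectoderm markers, which include Cdx2, summed to between 37.7 and 41 in null, 69.3 and 95 in induced and 79.8 and 118 in floxed arrays. Elf5 and Psg16 were above background on no array. Of 9 tested, 6 fell against floxed cells, where 1.11% of all genes fell, and 2 were higher in null cells. With probes above background on all 9 arrays, 3 of 6 trophectoderm and 4 of 6 fibroblast markers fell against floxed cells. Primitive endoderm markers did not separate the groups, at 12.1 to 13.3 in null, 12 to 14.1 in induced and 8.31 to 13.6 in floxed arrays, and 6 of those 12 were detected nowhere. The 10 neuroectoderm markers summed to between 45 and 50.8 in null, 31.9 and 35.6 in induced and 34.5 and 37.2 in floxed arrays, higher on all null arrays than on any other. Of the 10, 2 rose against floxed cells (0.738% of all genes) and 3 against induced cells (0.658% of all genes). In each comparison 2 of the 10 were lower in null cells. Wnt4, Wls and Ccn4 were low in the same null arrays in which the fibroblast and trophectoderm sums were low. On floxed array 3 the fibroblast sum (95.6) lay within the null range, but the trophectoderm sum (79.8) lay above all null arrays. The tested Wnt4 probe read -0.14 on that array. Wnt4 and Wls lay there near the other floxed arrays and above all null arrays, which is a reading from a single array. The part of those markers in the falls was not tested. In bulk RNA, fewer cells of a type and less RNA per cell cannot be told apart.

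Promoters of the members were read from RefSeq (GRCm38.p6), which held 40 of them for 31 of the 46 genes, each from 250 bases before to 50 bases after the start. The motif CTTTGAT, a core of Tcf and Lef binding sites, was searched on both strands and found in 2 of 40 (5.0%), against 3.73% of 32851 promoters in the table. The related CTTTGTT, which differs from it at a single base, was found in 4 of 40 (10%), against 5.85% of all. Matches of the first motif were in a Wnt5b promoter at -71 and, on the other strand, in a Wnt11 promoter at -51, and those of the related motif in promoters of Fzd7 (-130), Dkk1 (-98), Tcf7l2 (-14) and Wnt3 (19), counted from the start. No match was found in the Wnt4, Lef1 or Axin2 promoters in the table. The 250 bases before the start are shown for Wnt4, which fell in null cells, for a Lef1 promoter of the 4 in the table, and for the Wnt5b promoter that holds a match. Whether a match is bound, or bears on the signal of its gene, was not tested. Capitals mark the motif. The stretches are chr4:137277385-137277634 for Wnt4 and chr3:131110047-131110296 for Lef1, both on the plus strand, and chr6:119449387-119449636 on the minus strand for Wnt5b.
Wnt4 promoter: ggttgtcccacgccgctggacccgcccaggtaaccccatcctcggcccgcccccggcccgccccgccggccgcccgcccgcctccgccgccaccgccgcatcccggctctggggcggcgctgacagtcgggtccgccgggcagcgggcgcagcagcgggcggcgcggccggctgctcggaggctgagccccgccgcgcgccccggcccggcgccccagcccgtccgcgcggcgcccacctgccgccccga
Lef1 promoter: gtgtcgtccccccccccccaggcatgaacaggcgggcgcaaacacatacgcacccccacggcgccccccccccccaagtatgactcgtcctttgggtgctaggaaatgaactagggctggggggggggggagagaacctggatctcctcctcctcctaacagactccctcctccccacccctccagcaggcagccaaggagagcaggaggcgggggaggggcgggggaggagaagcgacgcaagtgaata
Wnt5b promoter: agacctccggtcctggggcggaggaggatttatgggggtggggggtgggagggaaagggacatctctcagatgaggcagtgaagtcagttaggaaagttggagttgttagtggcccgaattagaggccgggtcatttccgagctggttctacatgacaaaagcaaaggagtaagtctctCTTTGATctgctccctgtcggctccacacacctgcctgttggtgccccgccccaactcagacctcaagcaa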

How the data were processed

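Gene expression was measured in 9 samples with 1-colour Cy3 Agilent arrays, 1 array per sample. The authors' scanner files hold linear spot intensity from Agilent Feature Extraction 10.7.3.1, with mm9 probe positions, per the file headers. Its processed signal is background-subtracted and detrended within the array, with no scaling between arrays, per the file headers. The deposited series matrix holds each spot's mean signal intensity, equal to the scanner value within 1% for 100% of values. Its columns were each matched to a sample.

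Of 62976 spots 59305 were not controls. Controls and spots called outliers by the scanner software were dropped and the spots of each of 55681 probes averaged. Log2 processed signals were then centred on the 75th percentile of each array. Probes were named through RefSeq (27235) or else as in the files (28446), and members were chosen by the files' gene names. A probe was kept if at least 1 group had it well above background on each of its 3 arrays (27529 probes, with 2 more incomplete and left out), and the brightest probe stood for its gene (19909 genes). Groups came from the titles. All comparisons came from 1 limma 3.58.1 fit (R 4.3.3) of 3 group means over 9 arrays (lmFit, eBayes, two-sided), with Benjamini-Hochberg adjustment over the 19909 genes and 0.05 as threshold. The fit was tested on simulated data. For "at least" folds, an array of the group without detection counted with the lowest log2 value among its detected probes, or with its own value if higher.

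The genes named with values are members past the test, the Tcf factors, Ctnnb1, the Axin and Lrp genes, and the 3 highest tested genes of each of the Wnt, Fzd, Dkk and Sfrp families (of the Dkk family only Dkk3 was tested), with up to 5 genes past the test per pathway list. Other genes named were chosen after their values were seen. Members and lists were chosen with earlier results of these data known. Replicate numbers were not taken to pair the samples: correlations of the deviations of same-numbered arrays ran from -0.106 to 0.0871, and the labels name no shared culture or day. Alternatives were other normalization and background correction, other filters, slide or replicate number as a block, every probe, the series matrix, and leaving out each array.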

Additional observations from a re-analysis of the deposited data

How the results depend on the processing

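The number of members past the test was 0 between induced and floxed cells, 2 between null and floxed cells and 1 between null and induced cells. Between null and floxed cells it was 1 with normexp background, with no filter on dim probes, with probes above background on all 9 arrays, with slide as a fixed or as a random block, and with the series matrix, and the 1 was Wnt4 each time. With the fixed slide block it was 2 between induced and floxed cells (Lef1 and Wnt5b, both falling), where 0.874% of all genes passed. In that fit it was 8 between null and induced cells (6 rose, 2 fell), where 16.3% of all genes passed. With the random slide block, at a consensus correlation of 0.512, it was 6 between null and induced cells, where 9.1% of all genes passed. With the replicate block it was 3 between null and floxed cells (Wnt4, Wnt7b and Wnt9a) and 1 between null and induced cells, while over all genes the block gave 166 and 189 calls, against 367 and 438 without it. No same-numbered pair correlated above 0.0871, and the 3 pairs of null and induced arrays lay between -0.106 and -0.0289, so the numbers were not taken to pair the arrays. Leaving out 1 array gave 0 to 2 genes between induced and floxed cells, 1 to 12 between null and floxed cells and 1 to 8 between null and induced cells. The highest counts came without floxed array 3, where 0.787%, 24.9% and 18.1% of all genes passed in these comparisons. With no filter, 0, 76 and 63 of all genes passed in the 3 comparisons.

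Of the members' log2 differences under other settings, 17 of 274 turned sign between induced and floxed cells, 21 of 274 between null and floxed cells and 11 of 274 between null and induced cells. Of those with an array left out it was 14, 17 and 15 of 279. The 1 that turned and passed was Lef1, with an induced minus floxed value of 0.85 once floxed array 3 was left out. Values that turned follow for the genes named by the rule and a few others, with causes not tested.

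With quantile normalization null minus floxed was -0.0058 for Axin1, -0.0065 for Fzd7 and -0.021 for Wnt1. There null minus induced was -0.026 for Dkk3. Under the fixed slide block induced minus floxed was -0.35 for Fzd10, -0.0045 for Fzd7, -0.050 for Tcf7l1, 0.034 for Tcf7l2, 0.25 for Wnt1, -0.19 for Dkk3, -0.30 for Sfrp1 and -0.34 for Sfrp2. There null minus floxed was -0.14 for Axin1, -0.41 for Fzd2, -0.035 for Fzd3, 0.019 for Lrp5, -0.11 for Dkk3, -0.44 for Sfrp1, -0.15 for Sfrp2 and -0.10 for Sfrp5. There null minus induced was 0.034 for Fzd7, -0.085 for Tcf7l2 and -0.056 for Wnt1. Under the random slide block induced minus floxed was -0.075 for Fzd10 and 0.059 for Wnt1. There null minus floxed was -0.051 for Axin1, -0.12 for Fzd2 and -0.045 for Sfrp1. There null minus induced was 0.017 for Fzd7 and -0.030 for Tcf7l2. In the series matrix null minus floxed was -0.0096 for Fzd7 and -0.0015 for Wnt1. Of other genes named in the text, the fixed slide block gave induced minus floxed values of -0.52 for Fzd3, -0.47 for Fzd9 and -0.88 for Sfrp5, and null minus floxed values of 0.27 for Fzd5 and -0.32 for Fzd9. Wnt5b had a null minus floxed value of 0.19 without floxed array 3. Over the 9 ways of leaving out 1 array, induced minus floxed ran from -0.13 to 0.33 for Fzd10, -0.022 to 0.10 for Fzd7 and -0.57 to 0.85 for Lef1. For the same fits null minus floxed ran from -0.094 to 0.072 for Axin1, -0.041 to 0.29 for Fzd2, -0.20 to 0.13 for Wnt1, -0.29 to 0.16 for Fzd10, -0.14 to 0.12 for Fzd7, -0.26 to 0.034 for Lrp5, -0.49 to 0.12 for Wnt6 and -0.075 to 0.44 for Dkk3. For the same fits null minus induced ran from -0.18 to 0.079 for Fzd7, -0.27 to 0.24 for Dkk3, -0.085 to 0.19 for Tcf7l2 and -0.056 to 0.27 for Wnt1.

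Members are limited by signal over background: 15 of the 46 were not tested, and the call at the dim Wnt7b probe was kept in 6 of 17 alternatives. With 3 arrays a group, and floxed arrays spread over 2 slides, differences from floxed cells are known only as far as floxed array 3 allows.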

Other observations

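Members too dim for a test gave the following values, read at the probe above background on the most arrays. Wnt10a, a ligand known from tooth and skin appendages, was above background on 2 null, 2 induced and 1 floxed array, and read -2.80, -3.76 and -2.88 in null, -4.12, -3.48 and -3.61 in induced, and -4.36, -3.19 and -1.97 in floxed arrays 1 to 3. Its highest value lay on floxed array 3, as it did for Wnt8a. Dkk1, the inhibitor that blocks Lrp5 and Lrp6, was above background on 1 null array only, and read -3.13, -4.98 and -3.69 in null, -5.09, -5.09 and -5.34 in induced, and -5.05, -5.23 and -4.08 in floxed arrays 1 to 3. Null arrays lay above the induced arrays without overlap, mostly at signals below detection. Wnt8b was above background on 2 null arrays and no other, with -3.09, -3.91 and -2.76 in null, -4.04, -3.72 and -3.66 in induced, and -4.10, -3.45 and -4.43 in floxed arrays 1 to 3. Wnt7a was above background on 0 null, 1 induced and 1 floxed array and read between -5.22 and -3.2 over all 9 arrays. No test was made of these genes.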
